A study of Mus musculus with 19 samples.

Results

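Csf1 and 9 genes of tissue macrophages were followed in mouse endometrium, in estrous females and in mated females at day 3.5 pc. The 10 genes, Csf1, Csf1r, Adgre1, Cd68, Mrc1, Cd163, Lyve1, Folr2, C1qa and C1qb, were chosen by name and looked up by symbol among the 49089 genes of the deposited counts, where each was found. Of the 10, 9 reached at least 3 CPM (counts per 1000000) in at least 3 of the 19 libraries and were tested. This filter used the unscaled library total, while the CPM levels of genes given below use the scaled library total. Cd163 did not reach 3 CPM in any library and is given by its values alone.

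The 19 libraries fall into 5 groups of wild-type C57Bl/6 females. The estrus group (CONT, 3 libraries numbered 1, 2 and 4) held virgin females collected around ovulation, and the other 4 groups (4 libraries each) held females that had mated with BALB/c males and were collected at day 3.5 pc. The males were intact in INT and surgically modified in SVX, SVX_VAS and VAS. For these last 3 groups the sample titles and the sample descriptions name different surgeries, so each group is called here by the prefix of its description, with no surgery attached. Mated females were 8 to 14 weeks old when housed with males. Endometrium was scraped off the myometrium, and each library came from a pooled sample, so replicates differ as pools do. Estrous and mated females differed in mating history, time since ovulation and hour of collection together, and these cannot be told apart.

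Macrophages are among the most numerous leukocytes of the uterus. Their survival depends on the receptor tyrosine kinase encoded by Csf1r, which is bound by the growth factor Csf1, made by uterine epithelium and stroma, and by a further ligand, Il34. Mature tissue macrophages are recognised by surface and lysosomal proteins such as F4/80 (Adgre1) and macrosialin (Cd68), resident populations carry scavenging receptors (Mrc1, Cd163, Lyve1, Folr2), and many macrophages secrete the complement component C1q.

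By the deposited coordinates (GRCm38) and the GENCODE gene types, all 10 are protein-coding genes. On the plus strand lie Csf1r (ENSMUSG00000024621.15) at chr18:61105572-61132149, Adgre1 (ENSMUSG00000004730.14) at chr17:57358686-57483529, Mrc1 (ENSMUSG00000026712.3) at chr2:14229392-14332057 and Cd163 (ENSMUSG00000008845.9) at chr6:124304656-124330527. On the minus strand lie Csf1 (ENSMUSG00000014599.10) at chr3:107741048-107760469, Cd68 (ENSMUSG00000018774.13) at chr11:69664213-69666153, Lyve1 (ENSMUSG00000030787.4) at chr7:110850607-110863239, Folr2 (ENSMUSG00000032725.10) at chr7:101839988-101857194, C1qa (ENSMUSG00000036887.5) at chr4:136895917-136898803 and C1qb (ENSMUSG00000036905.8) at chr4:136880129-136886187.

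Total counts ranged from 15487788 to 31781270 in the estrus libraries and from 12661266 to 20525568 in the 16 mated libraries. Detection was limited to about 3 counts, worth 0.0944 to 0.237 CPM of the unscaled total, depending on the library. No member had a count of 0 in any library. In these whole-tissue libraries, fewer cells of a type and less RNA per cell cannot be told apart. VAS libraries 2 and 3 stood apart from the others, with scores of 188.9 and 189.6 on the first principal component against -79.4 to -1.22 in the other 17 libraries. Their 5 stromal marker genes summed to 1016 and 1127 CPM, against 2539 to 4187 CPM in the other libraries, and they had the largest scaling factors. For several results in VAS, values without these libraries are given as well. Each of the 5 stromal and 5 epithelial marker genes was counted in every group, and the 5 genes of smooth muscle, a tissue that the scraping was meant to leave behind, summed to 254 to 1111 CPM.

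The sequences upstream of 4 members are shown because these members behaved differently in the comparison with estrus: C1qb and Mrc1 were higher on average in the mated groups, Cd68 was lower and Csf1 was not called. The windows are the 250 bases before the RefSeq transcription start in GRCm38.p6, written 5′ to 3′ on the strand of the gene, and capitals mark each match of GAGGAA, the core of the PU.1 motif, on either strand (TTCCTC on the strand shown). PU.1, encoded by Spi1, is the leading transcription factor of myeloid cells. The C1qb window is chr4:136886201-136886450 on the minus strand, that of Mrc1 is chr2:14229164-14229413 on the plus strand, that of Cd68 is chr11:69666171-69666420 on the minus strand, and that of Csf1 is chr3:107760470-107760719 on the minus strand.
C1qb: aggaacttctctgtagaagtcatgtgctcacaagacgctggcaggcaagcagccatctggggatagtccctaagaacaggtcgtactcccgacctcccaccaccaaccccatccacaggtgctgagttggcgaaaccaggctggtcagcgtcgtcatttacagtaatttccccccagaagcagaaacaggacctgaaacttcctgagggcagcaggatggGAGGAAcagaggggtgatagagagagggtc
Mrc1: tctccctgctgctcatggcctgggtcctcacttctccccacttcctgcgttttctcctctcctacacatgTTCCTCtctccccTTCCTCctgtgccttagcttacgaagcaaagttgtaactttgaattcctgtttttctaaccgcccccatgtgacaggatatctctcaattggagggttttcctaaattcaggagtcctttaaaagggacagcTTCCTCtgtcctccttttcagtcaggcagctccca
Cd68: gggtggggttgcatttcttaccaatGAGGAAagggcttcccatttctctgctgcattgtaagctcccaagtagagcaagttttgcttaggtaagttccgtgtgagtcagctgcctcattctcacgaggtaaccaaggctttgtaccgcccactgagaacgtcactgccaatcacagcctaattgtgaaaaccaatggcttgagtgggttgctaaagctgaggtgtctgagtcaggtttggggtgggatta
Csf1: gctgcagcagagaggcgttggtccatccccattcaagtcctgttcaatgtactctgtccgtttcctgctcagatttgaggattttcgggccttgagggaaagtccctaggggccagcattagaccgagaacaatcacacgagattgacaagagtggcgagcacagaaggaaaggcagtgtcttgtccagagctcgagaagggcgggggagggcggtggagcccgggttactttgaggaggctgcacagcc
Counted from the start site, the core began at -30 in C1qb, at -225 in Cd68, and at -180, -167 and -35 in Mrc1, and these letters were not in the Csf1 window. Upstream windows were found for 6 of the 10 members, and 3 of the 6 held the core, as did 23.3% of all 32851 mouse windows of this length. The letters TGANTCA of the AP-1 motif, searched on both strands, occurred in the Cd68 window at -149 and -24, without overlap with GAGGAA, in 1 of the 2 Folr2 windows at -74, and in 6.75% of all windows. The estrogen response element, searched as GGTCA followed after 3 bases by TGACC, was in none of the members' windows and in 0.0639% of all windows.

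The question of the main comparison was how these genes differ between estrus and the receptive phase of day 3.5 pc. A gene was called when its edgeR quasi-likelihood test gave a Benjamini-Hochberg false discovery rate (FDR) of 0.05 or less over all 17222 genes tested and it differed by at least 1.5-fold in either direction. Changes are given as log2 fold changes (logFC). In INT against estrus, 4 members were higher and 1 was lower of the 9 tested, where 33.6% of all genes were called (20.9% higher and 12.7% lower). The counts were 5 higher and 1 lower in SVX (41.6% of all genes called, 23.1% higher and 18.5% lower), 4 and 1 in SVX_VAS (38.6% called, 22.2% higher and 16.5% lower), and 4 and 1 in VAS (40.6% called, 23.3% higher and 17.3% lower). With the mean of the 4 mated groups set against estrus, 5 members were higher and 1 was lower, where 40.9% of all genes were called (23% higher and 17.9% lower). Csf1r, Adgre1, C1qa and C1qb were higher in each of these 5 comparisons, Cd68 was lower in each, and Mrc1 was higher in SVX and in the mean of the mated groups. The median logFC of the 9 tested members was 0.44 in INT and 0.64 in the mean of the mated groups, beside medians of -0.01 and -0.04 over all genes tested. Of the 10 members, 4 had all mated libraries above all estrus libraries and 0 had them all below, beside 45.4% of all genes tested with no overlap in either direction. All of these comparisons share the same 3 estrus libraries, so they are not independent of each other.

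**Figure D1:**
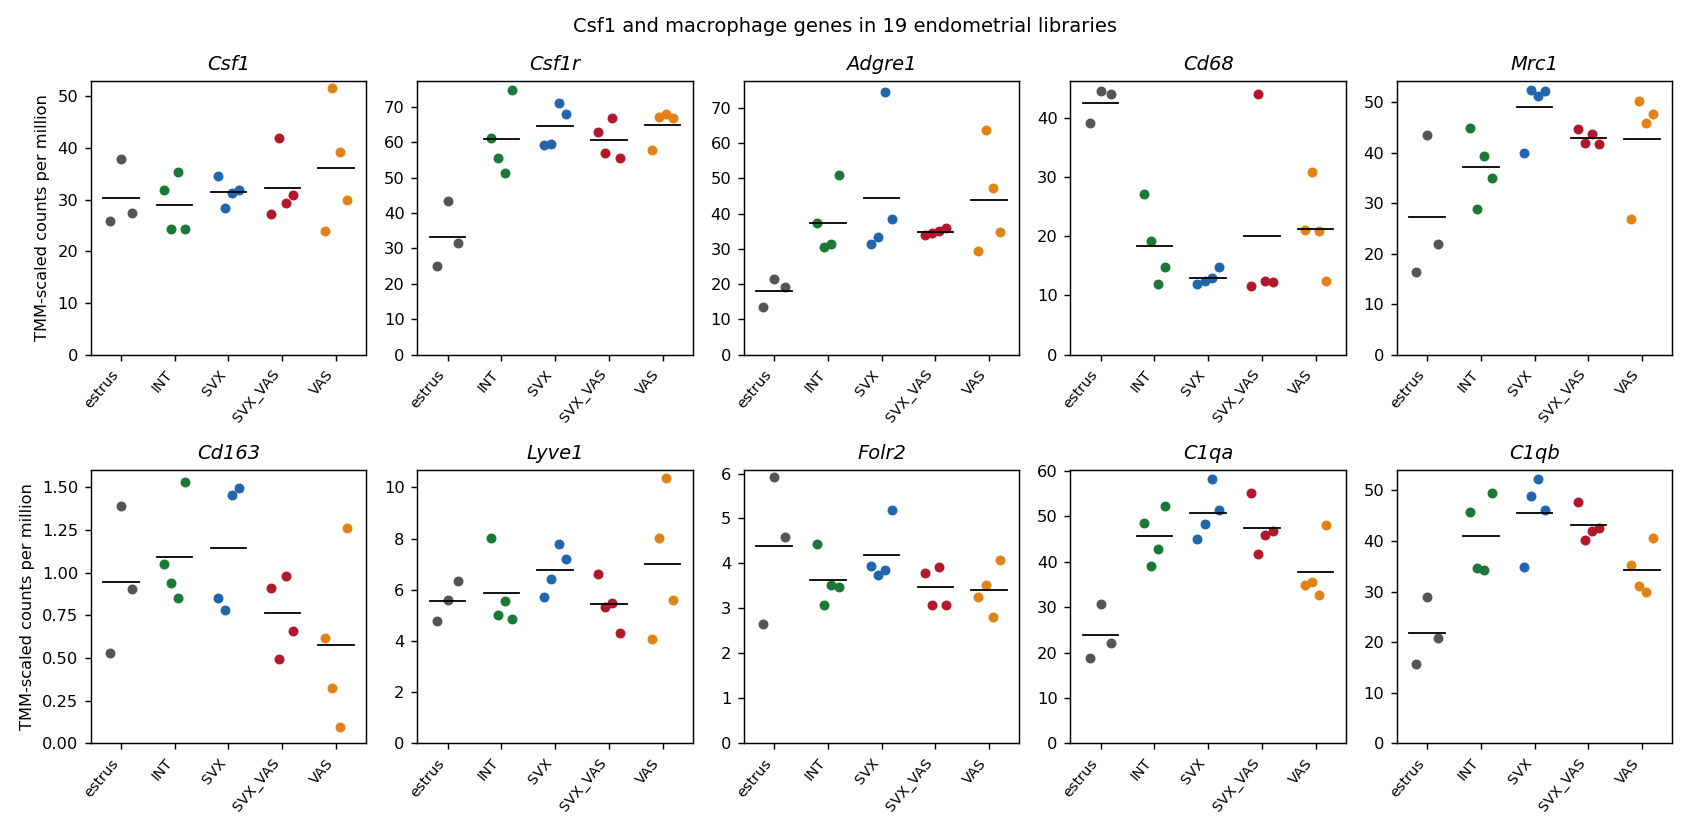
Each panel plots 1 gene. The vertical axis gives its TMM-scaled CPM and the horizontal axis the 5 groups, points are libraries and bars are group means. The estrus points of Csf1r, Adgre1, C1qa and C1qb lie below all 16 mated points, Cd68 is at 39.1 CPM or more at estrus and in SVX_VAS library 2 but not in the other mated libraries, and the Csf1 groups overlap.

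The growth factor Csf1 overlapped between estrus and every mated group. It was at 25.8, 37.8 and 27.4 CPM in estrus libraries 1, 2 and 4, and at 31.8, 24.4, 35.4 and 24.3 CPM in INT libraries 1 to 4. It was at 34.7, 28.4, 31.2 and 31.8 CPM in SVX and at 27.2, 41.9, 29.4 and 30.8 CPM in SVX_VAS. It was at 24.0, 51.6, 39.2 and 30.0 CPM in VAS, the group with the widest spread (36.2 ± 12.0 CPM, SD, n = 4). The estrus range overlapped with that of every mated group, and VAS libraries 2 and 3 held 2 of the 3 highest mated levels. Csf1 had a logFC of -0.07 in INT against estrus (95% interval -0.55 to 0.41, edgeR, FDR 0.838) and of 0.08 in the mean of the mated groups (-0.32 to 0.48, FDR 0.733). In linear terms this second interval ran from 0.802-fold to 1.40-fold. In VAS against estrus the logFC of Csf1 was 0.25 with all libraries and -0.17 without VAS libraries 2 and 3, neither being called.

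Csf1r, the receptor for Csf1, was higher on day 3.5 pc. It was at 25.1, 43.3 and 31.5 CPM at estrus and at 61.2, 55.7, 51.4 and 74.8 CPM in INT, and every INT library was above every estrus library. The other mated groups were at 59.1, 59.6, 71.0 and 68.0 CPM (SVX), 62.9, 57.0, 66.9 and 55.5 CPM (SVX_VAS), and 57.7, 67.2, 67.9 and 66.9 CPM (VAS), again all above estrus. The receptor was 1.82-fold higher in INT (logFC 0.87 ± 0.16, SE, edgeR, FDR 0.000339) and 1.88-fold higher in the mean of the mated groups (logFC 0.91 ± 0.14, SE, FDR 3.04e-05). Csf1r had the smallest spread of the called members over the 16 mated libraries, with a coefficient of variation of 10.4%, against 49.8% for Cd68. It was called under each alternative and with each library left out in the comparisons with estrus. Of its exons, 871 bases are shared with Hmgxb3 on the opposite strand, and the strand setting of the counting is not given in the sources used here, so part of its count may belong to that gene.

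Adgre1, which encodes the F4/80 antigen, was also higher on day 3.5 pc, with a wider spread than Csf1r. It was at 13.6, 21.5 and 19.2 CPM at estrus. It was at 37.4, 30.4, 31.2 and 50.8 CPM in INT, at 31.3, 33.3, 74.5 and 38.6 CPM in SVX, and at 33.8, 34.4, 35.0 and 35.9 CPM in SVX_VAS. In VAS it was at 29.3, 63.7, 47.2 and 34.9 CPM, with its highest levels in VAS libraries 2 and 3. All 16 mated libraries were above the 3 estrus libraries, and SVX library 3 was far above the rest of its group. Adgre1 was 2.06-fold higher in INT (logFC 1.04 ± 0.31, SE, edgeR, FDR 0.0109) and 2.20-fold higher in the mean of the mated groups (logFC 1.14 ± 0.27, SE, FDR 0.00171). In SVX the logFC of Adgre1 was 1.29 with library 3 and 0.92 without it, and both were called. Without VAS libraries 2 and 3, the logFC of Adgre1 in VAS was 0.82 instead of 1.27, and that of Csf1r was 0.90 instead of 0.96, all called. Without estrus library 1, the FDR of Adgre1 rose to 0.0617 in INT and to 0.0874 in SVX_VAS, and it was no longer called there.

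Cd68, which encodes the lysosomal glycoprotein macrosialin, differed in the other direction. It was at 39.1, 44.5 and 43.9 CPM at estrus, a coefficient of variation of 6.98%. It was at 27.1, 19.2, 11.9 and 14.8 CPM in INT and at 11.9, 12.4, 12.9 and 14.8 CPM in SVX. It was at 11.6, 43.9, 12.4 and 12.3 CPM in SVX_VAS and at 21.1, 30.7, 20.9 and 12.3 CPM in VAS. SVX_VAS library 2 lay within the estrus range, and the other 15 mated libraries lay below it. Cd68 was 2.33-fold lower in INT (logFC -1.22 ± 0.42, SE, edgeR, FDR 0.0233) and 2.38-fold lower in the mean of the mated groups (logFC -1.25 ± 0.31, SE, FDR 0.00247). In SVX_VAS its logFC was -1.08 with library 2 and -1.81 without it, both called. The call in VAS was close to the threshold (logFC -0.998, edgeR, FDR 0.0499). It was lost there in 12 of the 19 fits that left out 1 library, namely each estrus library, INT 2 and 4, each SVX library and VAS 1, 3 and 4 (highest FDR 0.119, logFC -0.81). Without VAS libraries 2 and 3 together, the logFC in VAS was -1.35, which was called. In SVX_VAS the call was lost without any estrus library, SVX_VAS 1, 3 or 4, or VAS 3 (highest FDR 0.102), and in INT without estrus library 2 or 4 or INT library 3 or 4 (highest FDR 0.0627). Cd68 was lower than at estrus in each of these fits, and its calls in SVX and in the mean of the mated groups were kept in all of them.

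The level of Cd68 across the mated libraries went along with that of genes known to respond to estrogen in the uterine epithelium. The 8 genes of that list (among them Ltf, C3 and Muc1) summed to between 13035 and 14831 CPM at estrus. Among the mated libraries the sum was highest in INT library 1 (9767 CPM) and SVX_VAS library 2 (9308 CPM), followed by INT library 2 (3916 CPM) and VAS library 1 (3109 CPM), and these 4 libraries had Cd68 at 27.1, 43.9, 19.2 and 21.1 CPM. VAS libraries 2 and 3, with 1132 and 582 CPM for the list, had Cd68 at 30.7 and 20.9 CPM. Of the other 10 mated libraries, none had Cd68 above 14.8 CPM, with list sums of 210 to 1567 CPM. The summed CPM of the 5 epithelial marker genes was 2990 to 4102 at estrus and 408 to 2114 in the mated libraries, with its highest mated value also in INT library 1. The part of these genes in the level of Cd68 was not tested.

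**Figure D2:**
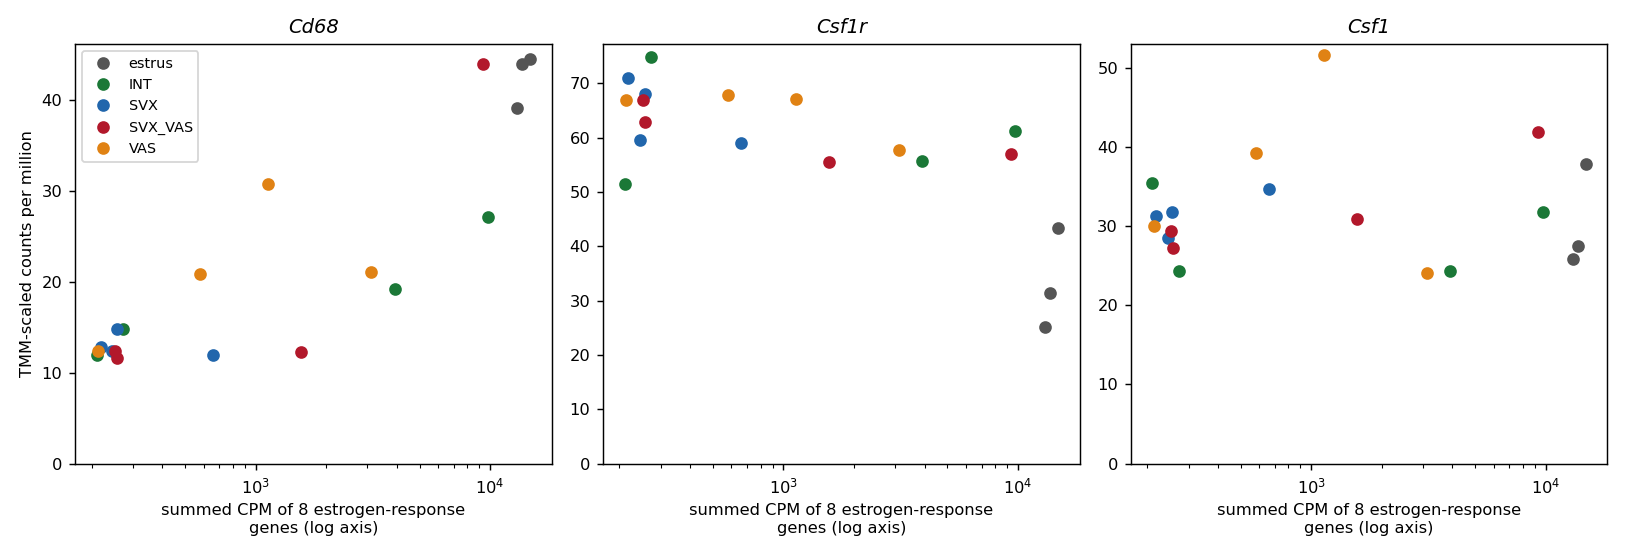
For each of the 19 libraries, the summed CPM of 8 estrogen-response genes (horizontal log axis) is set against the TMM-scaled CPM of Cd68, Csf1r and Csf1 (vertical axes). The 2 mated libraries with list sums of 9767 and 9308 CPM lie near estrus on the horizontal axis, where their Cd68 was at 27.1 and 43.9 CPM and their Csf1r at 61.2 and 57.0 CPM.

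Of the genes of resident macrophages, Mrc1 was the one with a call. This gene, which encodes the mannose receptor CD206, was at 16.4, 43.4 and 22.0 CPM at estrus, the widest relative spread of any tested member there (coefficient of variation 52.3%). It was at 44.9, 28.9, 39.3 and 35.1 CPM in INT and at 39.9, 52.4, 51.2 and 52.2 CPM in SVX. It was at 44.7, 41.9, 43.6 and 41.7 CPM in SVX_VAS and at 26.9, 50.2, 45.9 and 47.6 CPM in VAS. Estrus library 2 was within the range of each mated group but the other estrus libraries were below all mated libraries. Mrc1 had a logFC of 0.84 ± 0.27 (SE) in SVX (edgeR, FDR 0.0141) and of 0.64 ± 0.23 (SE) in the mean of the mated groups (FDR 0.0228). The logFC was 0.65 in SVX_VAS (FDR 0.0506), 0.64 in VAS (FDR 0.0516) and 0.44 in INT (FDR 0.195), none of them called. The calls of Mrc1 depended on the libraries and on the tool. It was called in SVX_VAS in 8 of 12 alternatives, among them DESeq2 and limma-voom, and when any of VAS libraries 1, 2 or 3 was left out, and in VAS in 6 of 12 alternatives and without VAS library 1. Without VAS libraries 2 and 3 its logFC in VAS was 0.44 (FDR 0.260). Without estrus library 2 the logFC was 0.95 in INT (FDR 0.00356) and 1.15 in the mean of the mated groups (FDR 0.000272), while without estrus library 1 or 4 the latter was 0.38 (FDR 0.189) or 0.50 (FDR 0.127). The call of Mrc1 in SVX was likewise lost without estrus library 1 (logFC 0.57) or 4 (0.70), with a highest FDR of 0.0843, and without estrus library 2 Mrc1 was also called in SVX_VAS (1.16) and VAS (1.15).

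Lyve1, a hyaluronan receptor of lymphatic endothelium and of some resident macrophages, was at 4.78, 5.60 and 6.33 CPM at estrus and between 4.09 and 10.4 CPM in the mated libraries (median 5.67 CPM). Its highest level was in VAS library 3, and its logFC in VAS against estrus was 0.34 with VAS libraries 2 and 3 and -0.20 without them, neither being called. Of 12 alternatives other than leaving out single libraries, 2 called it higher in VAS than at estrus, namely library totals (0.81) and limma-voom with quality weights (FDR 0.00256). Lyve1 had a logFC of 0.17 in the mean of the mated groups (95% interval -0.31 to 0.64, edgeR, FDR 0.545). Folr2, a folate receptor of resident macrophages, was at 2.66, 5.92 and 4.60 CPM at estrus and between 2.80 and 5.20 CPM in the mated libraries (median 3.64 CPM). Its groups overlapped, with a logFC of -0.27 (95% interval -0.67 to 0.14, edgeR, FDR 0.241), and 975 bases of its exons are shared with Gm10602 on the opposite strand. Its lowest level was in estrus library 1, and without that library Folr2 was called lower in SVX_VAS (-0.60, edgeR, FDR 0.0312) and in VAS (-0.63, FDR 0.0235), with a logFC of -0.53 in the mean of the mated groups (FDR 0.0222), short of the 1.5-fold limit. Cd163, the haemoglobin scavenger receptor, had the lowest level of the members. It had 9, 39 and 12 counts at estrus and between 2 and 22 counts in the mated libraries, or 0.942 ± 0.431 CPM (SD, n = 3) and 0.894 ± 0.410 CPM (SD, n = 16). The 2 lowest Cd163 levels were in VAS libraries 2 and 3, with 7 and 2 counts.

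The complement genes C1qa and C1qb, which encode the A and B chains of C1q and lie next to C1qc on chromosome 4, were higher on day 3.5 pc in step with each other. C1qa was at 18.7, 30.7 and 22.1 CPM at estrus and at 48.5, 39.1, 42.9 and 52.3 CPM in INT. The other mated groups were at 45.0, 48.3, 58.3 and 51.4 CPM (SVX), 55.2, 41.6, 46.0 and 46.8 CPM (SVX_VAS), and 34.9, 35.5, 32.6 and 48.1 CPM (VAS). No mated library fell to the estrus range, and VAS libraries 1 to 3 were the lowest of the mated libraries. C1qb was at 15.7, 29.0 and 20.8 CPM at estrus, at 45.8, 34.6, 34.3 and 49.4 CPM in INT, and between 29.9 and 52.2 CPM in the other mated libraries, with VAS library 3 the closest to estrus. C1qa was 1.91-fold higher in INT (logFC 0.93 ± 0.17, SE, edgeR, FDR 0.00036) and 1.89-fold higher in the mean of the mated groups (FDR 6.07e-05). C1qb was 1.88-fold higher in INT (logFC 0.91 ± 0.20, SE, edgeR, FDR 0.00124) and 1.86-fold higher in the mean of the mated groups (FDR 0.000239). In VAS the logFC values were 0.66 for C1qa and 0.64 for C1qb, and without VAS libraries 2 and 3 they were 0.79 for each, all called. Neither was called in VAS without VAS library 4 (0.52 and 0.55) or without estrus library 1 (0.51 and 0.45), nor by limma-voom with quality weights (0.53 and 0.49).

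**Figure D3:**
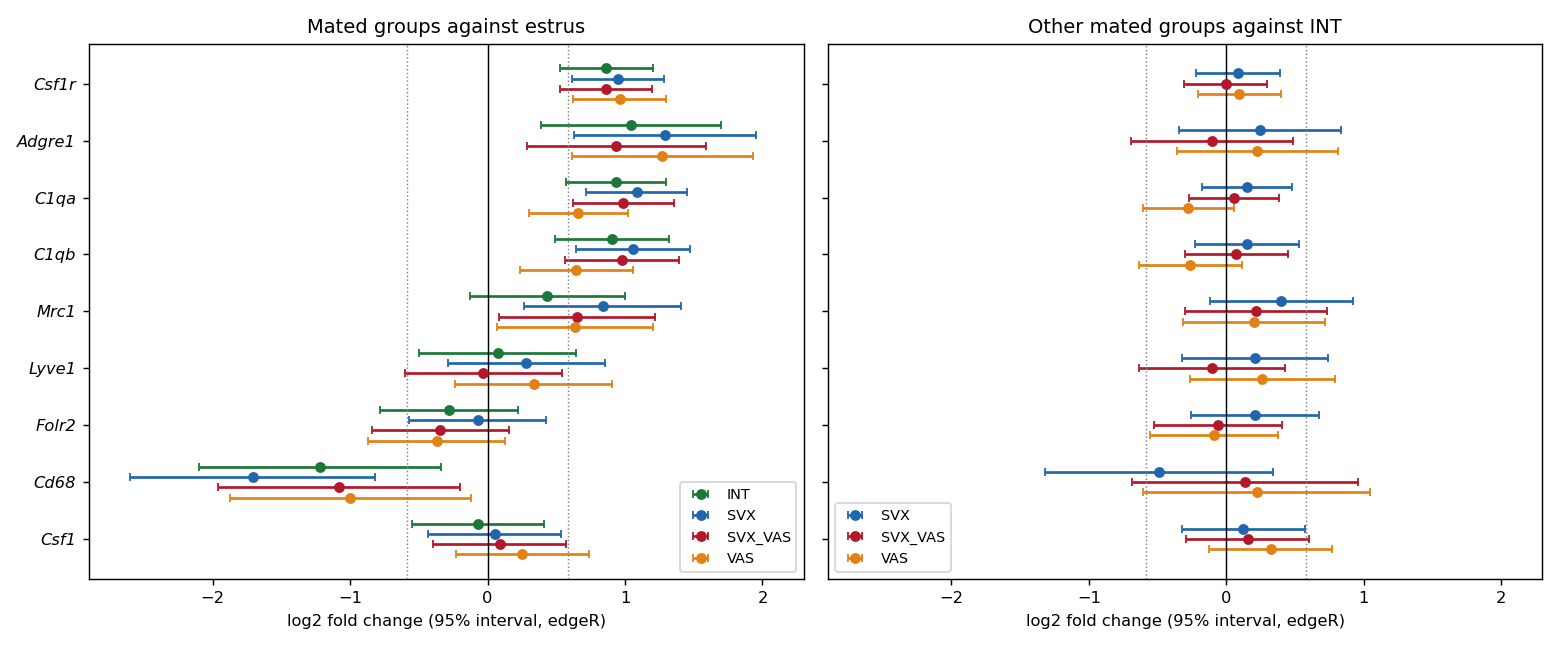
The log2 fold change (horizontal axis) of the 9 tested genes is shown with its 95% interval, for each mated group against estrus on the left and for the other mated groups against INT on the right. Dotted lines mark the 1.5-fold cutoff. On the left, the intervals of Csf1r, Adgre1, C1qa and C1qb lie above 0 and those of Cd68 below 0, and on the right every interval includes 0.

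The comparisons among the mated groups asked whether any member varied with the kind of male. No member was called in SVX, SVX_VAS or VAS against INT, nor in the edgeR test of any difference among the 4 mated groups, where 0% of all genes were called in each case. The number of members with an unadjusted p under 0.05 was also 0 in each of the 4 tests, where 4.35%, 1.97%, 10.6% and 7.04% of all genes had one. The lowest FDR of a member in the edgeR test among the mated groups was that of C1qa (0.635). DESeq2 also called no member, with 3, 2, 0 and 21 of all genes called in the 4 tests, and nor did limma-voom, with 0, 0, 1663 and 1396 genes called. Limma-voom with sample quality weights called Csf1 (logFC 0.64, FDR 0.00668) and Lyve1 (logFC 0.71, FDR 0.00804) in VAS against INT and 5 members (Csf1, Cd68, Lyve1, C1qa and C1qb) in the test among the 4 groups, where it called 4734 and 9444 of all genes. The logFC of Csf1 in VAS against INT was 0.32 in the edgeR fit of all libraries and -0.10 without VAS libraries 2 and 3, and that of Lyve1 was 0.26 and -0.28, so both changed sign, and no member was called without these libraries. The intervals of the unweighted edgeR fit limit how far the groups could differ. They ran from -0.21 to 0.40 for Csf1r in VAS against INT and from -0.12 to 0.77 for Csf1, but from -0.60 to 1.05 for Cd68.

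Levels were compared between genes as RPKM, that is CPM divided by the gene length in kilobases. At estrus Cd68 was highest (33.8 ± 2.36, SD, n = 3), followed by C1qa (22.9 ± 5.94) and C1qb (20.0 ± 6.17), which overlapped with each other. Csf1r (6.82), Csf1 (5.75), Adgre1 (5.59), Mrc1 (4.28), Folr2 (2.84) and Lyve1 (1.91) followed, each overlapping with the next, and Cd163 was at 0.173 RPKM. In INT the order opened with C1qa (43.9 ± 5.65, SD, n = 4) and C1qb (37.7 ± 7.09), which overlapped. Cd68 (14.5), Csf1r (12.4) and Adgre1 (11.5) overlapped in turn. Below these, Mrc1 (5.82) and Csf1 (5.48) overlapped, as did Folr2 (2.34) and Lyve1 (2.01). Cd68 thus came first at estrus, apart from C1qa, and followed both C1q genes in INT, apart from C1qb, and C1qa and C1qb also led in the other 3 mated groups.

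Ratios of 2 genes within a library do not depend on the scaling of that library. The log2 ratio of Csf1 to Csf1r, taken from CPM and not per length, was 0.04, -0.19 and -0.20 at estrus and -0.94, -1.19, -0.54 and -1.61 in INT. Ligand and receptor were thus about level at estrus, and the INT libraries were all lower, with a mean difference of -0.95. The exact permutation test gave p = 0.0571 (two-sided on the size of the difference, 35 splits, smallest possible p 0.0286), or 0.0857 after Benjamini-Hochberg adjustment over the 3 ratios. The other mated groups had means of -1.03 ± 0.18 (SVX), -0.92 ± 0.36 (SVX_VAS) and -0.90 ± 0.40 (VAS, SD, n = 4 each), each library being below the estrus range.

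The log2 ratio of Mrc1 to Adgre1 was 0.27, 1.01 and 0.19 at estrus and between -0.53 and 0.33 in INT, with overlap (difference -0.49, exact permutation p = 0.257, adjusted 0.257). Set against Ptprc, which encodes the pan-leukocyte antigen CD45, Csf1r had a log2 ratio of -0.62 ± 0.22 (SD, n = 3) at estrus and of -1.15 ± 0.16 (SD, n = 4) in INT. The groups did not overlap, and the difference of -0.53 had the smallest p this design allows (exact permutation p = 0.0286, adjusted 0.0857). The ratio was lower in 4 of 4 INT libraries, and its adjusted p did not pass 0.05. Ptprc itself had a logFC of 1.35 in INT (edgeR, FDR 0.000252).

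**Figure D4:**
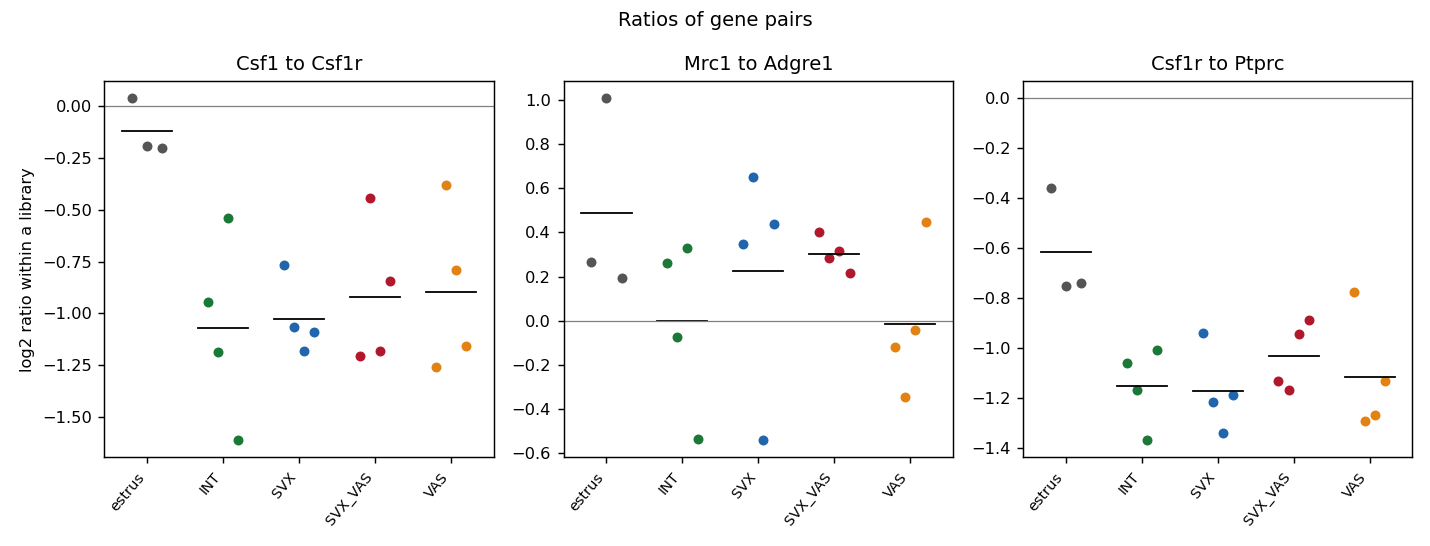
Log2 ratios within a library (vertical axes) of Csf1 to Csf1r, Mrc1 to Adgre1 and Csf1r to Ptprc are plotted by group. Points are libraries, bars are group means and the grey line marks equal levels. The estrus points of the ratios to Csf1r and to Ptprc lie above all mated points, with means of -0.12 and -0.62, while those of Mrc1 to Adgre1 overlap with the mated groups.

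How the members varied together within groups was described by Pearson's r of their log2 CPM over the 19 libraries after the group means were subtracted. Values from the same libraries share depth and scaling, so r is given as a description. C1qa and C1qb were the closest pair (r = 0.901), and Csf1r went with C1qb (0.761), C1qa (0.746), Mrc1 (0.706), Folr2 (0.667) and Adgre1 (0.664). Csf1 did not go with its receptor (0.192), and Cd68 did not go with Csf1r (-0.00469) or C1qb (-0.0922). Over the 16 mated libraries, without subtraction of group means, the log2 CPM of Csf1 and Csf1r had r = 0.00917 (permutation p = 0.973). Spearman's rho of the same values was 0.00588 (permutation p = 0.987). Without the 2 libraries farthest from the median of Csf1, VAS 2 and SVX_VAS 2, r was -0.0364.

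Of all genes tested, those most like Csf1r by the same measure were C1qc (0.900), Pamr1 (0.864), Dpyd (0.850), Aox3 (0.846) and Ripor2 (0.846). Those most like Csf1 were Chst15 (0.918), Pgap1 (0.911), Zfand2a (0.900), Pvr (0.893) and Pde4b (0.881). None of these 5 was a member or a gene of the marker lists, whereas C1qc encodes the remaining chain of C1q. For Cd68, which was singled out after its values were seen, the most similar genes included Cxcl16 (0.981), Dock11 (0.960), Nfkbiz (0.952) and Zc3h12a (0.949). Cxcl16 encodes a transmembrane chemokine, and Nfkbiz and Zc3h12a encode regulators of inflammatory gene expression. Their mean levels were 36.6, 177.3 and 30.4 CPM at estrus and 32.2, 83.5 and 13.9 CPM in the mated libraries.

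Beside Csf1, 9 genes for other ligands and receptors of the CSF family were examined, of which 8 were tested. In the mean of the mated groups 4 were higher and 1 was lower, with a median logFC of 1.15, beside -0.04 over all genes. The second ligand of Csf1r, Il34, was at 3.28 ± 0.58 CPM at estrus (SD, n = 3) and 3.02 ± 0.56 CPM in the mated libraries (SD, n = 16), with a logFC of -0.11 (edgeR, FDR 0.613). Neither gene for a ligand of Csf1r was thus called. Csf2rb, the shared signalling chain of the receptors for GM-CSF, IL-3 and IL-5, was at 6.66 ± 2.17 CPM (SD, n = 3) at estrus and rose by a logFC of 2.33 (edgeR, FDR 1.98e-06), and Csf2rb2, the mouse IL-3 receptor chain close to it in sequence, by 2.21 (FDR 5.7e-06). Csf3r, the receptor for G-CSF, rose by 1.99 (edgeR, FDR 0.000424). Csf2ra, the chain specific for GM-CSF, had a logFC of 0.32, under the cutoff, and Csf3 one of -1.16 (edgeR, FDR 0.0818). Ptprz1, a further receptor of Il34, rose from 1.17 ± 0.56 to 24.96 ± 7.01 CPM (SD, logFC 4.40, edgeR, FDR 4.99e-07), whereas the syndecan Sdc1, which also binds Il34, fell from 169.8 to 102 CPM (logFC -0.74, FDR 0.0218). Csf2 was not tested, at 1.58 CPM or less in every library.

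Of 7 genes for transcription factors of macrophages, 6 were tested, and 4 were higher in the mean of the mated groups. Spi1 (PU.1, logFC 1.05), Irf8 (1.15), Cebpa (1.38) and Nr1h3 (the sterol sensor LXR alpha, 1.45) were higher, with FDR values between 2.91e-06 and 0.00622 (edgeR). Maf had a logFC of 0.51, under the cutoff, and Tfec was not tested.

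Of 25 other genes found in tissue macrophages, 20 were tested, with 10 higher, 2 lower and 8 not called (median logFC 0.59). Ms4a7, a membrane protein of macrophages, had the largest logFC (1.72) and Cbr2, a carbonyl reductase, the smallest (-3.34, from a mean of 972 to one of 119 CPM). C1qc rose with C1qa and C1qb (logFC 1.08, edgeR, FDR 8.93e-05). The lysozyme gene Lyz2 (1.58), the fractalkine receptor Cx3cr1 (1.47), the adaptor Tyrobp (1.19) and the scavenger receptor Stab1 (1.11) were also higher, while the sialoadhesin Siglec1 was lower (-0.62). In sum the 25 genes were at 1553 to 1746 CPM at estrus and 956 to 1622 CPM in the mated libraries, a sum of which Cbr2 alone made up a mean of 972 CPM at estrus.

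**Figure D5:**
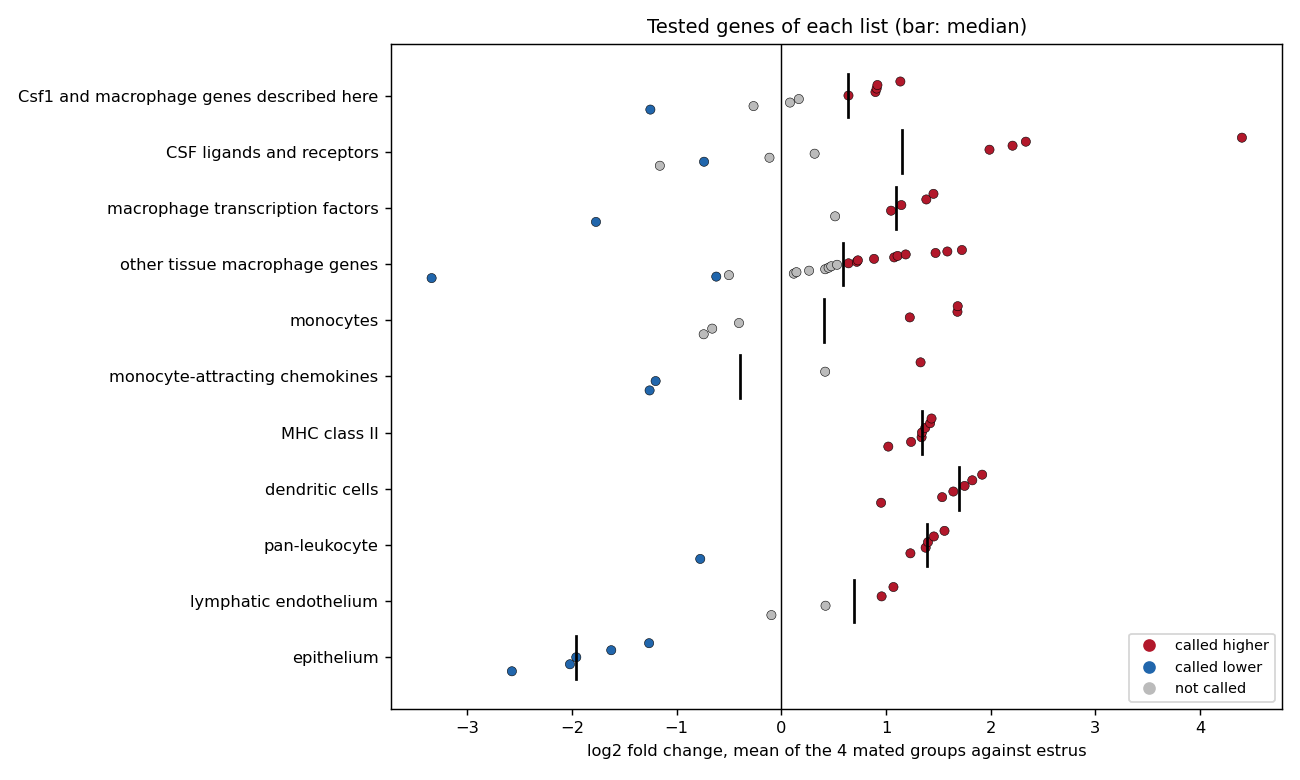
Each point is a tested gene of a list, at its log2 fold change in the mean of the 4 mated groups against estrus (horizontal axis), with black bars at the list medians. Red and blue points were called higher and lower and grey points were not called. The list of Csf1 and macrophage genes has its median at 0.64, MHC class II at 1.34 and epithelium at -1.96.

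Lists for other cells that can carry or contain these transcripts moved as follows in the mean of the mated groups. Of 6 tested monocyte genes 3 were higher and 0 lower, from Itgal (logFC 1.68) to Ly6c2 (-0.74, not called), and of 4 tested monocyte-attracting chemokines Ccl5 was higher (1.33) while Cx3cl1 (-1.26) and Ccl7 (-1.20) were lower. All 7 MHC class II genes were higher, from H2-DMa (1.02) to H2-Ab1 (1.43), as were all 6 dendritic cell genes, from Cd209a (0.95) to Xcr1 (1.92). Of 6 pan-leukocyte genes 5 were higher, with the largest change in Cd52 (1.56), and Laptm5 was lower (-0.78). Their sum was 129.1 to 205.5 CPM at estrus and 225.5 to 343.2 CPM in the mated libraries, a range with no overlap that moves with that of Csf1r, and the part of total leukocyte content in the members' levels was not tested. Of the lymphatic endothelial genes, with which Lyve1 is shared, 2 of 4 tested were higher and 0 lower, from Mmrn1 (-0.10, not called) to Pdpn (1.07). All 5 genes of blood endothelium were higher, from Pecam1 (1.71) to Emcn (2.53), and all 5 of epithelium were lower, from Krt18 (-1.26) to Krt19 (-2.58).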

How the data were processed

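RNA of scraped mouse endometrium was sequenced in 19 libraries in 5 groups. Per the study's methods, the authors trimmed paired-end reads of a stranded total RNA kit with AdapterRemoval version 2, aligned them with STAR to GRCm38 and counted them per gene with featureCounts. Other versions and the strand setting of the counting are not given in the sources used here. The deposited table holds raw counts per gene, not normalized values, with the gene length in bases, and the columns of other samples number 0. Gene symbols came from GENCODE (GRCm38), with 1.51% of 49089 identifiers not matched.

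Here, the 17222 genes that reached 3 CPM in 3 or more libraries were scaled by TMM and fitted with all 5 groups in edgeR 4.0.16 (R 4.3.3) by its quasi-likelihood test, with Benjamini-Hochberg adjustment over all genes tested. A call needed an FDR no higher than 0.05 together with a change of 1.5-fold or more. In counts simulated from these libraries for INT against estrus, 57 of 100 genes changed by a log2 value of 1 and 82 of 100 changed by 2 were found. CPM were TMM-scaled, and log2 CPM used a prior count of 2. Alternatives used DESeq2 1.42.0 and limma 3.58.1, other scalings and filters, a replicate block, only the groups compared, and each library left out in turn. Intervals and limits for a count of 0 cover counting error or the spread between libraries only, and no 2 libraries of a group held identical values. The named genes are all 10 members, the 5 genes most like Csf1 and Csf1r, the extremes of each marker list and the genes of the CSF and transcription factor lists. Some items that this rule names are not reported here. Some further genes of the macrophage list and those most like Cd68 were named after their values were seen. The members and lists were chosen with earlier results of these data known.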

Additional observations from a re-analysis of the deposited data

Results flagged for a closer look

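The levels of the 10 members and 3 log2 ratios between members or with Ptprc were searched in the 4 mated groups, which gives 52 groups of 4 libraries. Of these, 5 held a library that lay far from the other 3 by Dixon's criterion (critical value 0.829), and chance gives about 1 in 20 groups, or 2.6. Cd68 was at 43.9 CPM in SVX_VAS library 2, against 11.6 to 12.4 CPM in the rest of that group. Adgre1 was at 74.5 CPM in SVX library 3, against 31.3 to 38.6 CPM. Mrc1 was at 39.9 CPM in SVX library 1, below the 51.2 to 52.4 CPM of the others. Csf1r was at 57.7 CPM in VAS library 1, below 66.9 to 67.9 CPM. Folr2 was at 5.20 CPM in SVX library 4, against 3.75 to 3.95 CPM.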

How the results depend on the processing

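No member called in an edgeR comparison changed direction under any alternative, whereas 65 alternative values of members that were not called changed sign. Limma-voom with quality weights called 2 members in VAS against INT and 5 in the test among the mated groups, where the edgeR fit called 0. The cause was not tested. With 1 library left out at a time, 4 to 5 members were called in INT against estrus (4897 to 6265 of all genes). The members called numbered 5 to 6 in SVX (6428 to 7300 of all genes) and 4 to 6 in SVX_VAS (5746 to 6859). They numbered 2 to 5 in VAS (6136 to 8236) and 5 to 6 in the mean of the mated groups (6218 to 7348). Among the mated groups, 0 members were called in each comparison, where 0 to 576 of all genes were called in VAS against INT. The test of any difference called 0 to 172 of all genes, and SVX and SVX_VAS against INT called 0. The lowest count in VAS was 2, without VAS library 4, and it was 3 without estrus library 1, where Cd68, C1qa and C1qb were no longer called and Folr2 was newly called lower (logFC -0.63). The differences in log2 ratio ranged from -1.13 to -0.77 (Csf1 to Csf1r), from -0.64 to -0.23 (Mrc1 to Adgre1) and from -0.60 to -0.40 (Csf1r to Ptprc). With library totals in place of TMM, the median of all genes moved to 0.17 in INT and 0.34 in VAS, and Csf1 (logFC 0.72) and Lyve1 (0.81) were called in VAS while Cd68 was called neither there (-0.55) nor in INT (-1.05) or SVX_VAS (-0.90). The call of Cd68 was also lost under upper quartile scaling in SVX_VAS (-0.95) and VAS (-0.79), with only the groups compared in SVX_VAS (-1.05), and with no filter on low counts in VAS (-1.06). Deviations of same-numbered libraries had a median correlation of 0.0469 over 36 pairs, with a lowest value of -0.688, so the numbers do not pair the libraries. With the replicate block, the members called were those of the main fit in every comparison, except that Mrc1 was also called higher in SVX_VAS against estrus. The share of all genes called with the block is not given here. Each estrus result rests on 3 pooled libraries, and depth limits Cd163, with 2 to 39 counts a library.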

Other observations

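Other leukocyte genes differed between estrus and day 3.5 pc beside those of macrophages. Of 8 genes of T and NK cells, 6 were tested and all 6 were higher in the mean of the mated groups, from Klrb1c (logFC 1.30) to Cd3g (3.21). Of 2 tested neutrophil genes Ly6g was lower (-3.64, edgeR, FDR 2.66e-05) and Retnlg was not called (0.39), and the summed neutrophil list was at 26.2 and 37.5 CPM in VAS libraries 2 and 3, above the 13.3 to 13.8 CPM of estrus. Of 2 tested eosinophil genes Il5ra was lower (-4.47, edgeR, FDR 5.96e-07) and Ccr3 was not called (0.51). Cd79b of B cells was lower (-2.39, edgeR, FDR 9.86e-05). In all, 6 of 8, 3 of 5 and 4 of 5 genes of these lists were not tested because of low counts. Kit, the 1 tested gene of the mast cell list, was higher (1.73). Of the red blood cell genes, 4 of 5 were higher, with Alas2 (0.81) not called.

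In the mean of the mated groups against estrus, 6 of 7 tested genes with an estrogen response were lower, with a median logFC of -3.22, and 6 of 7 genes with a progesterone response were higher, with a median of 4.69 and the largest change in Calca (6.20). Group by group, the estrogen-response genes called lower than at estrus numbered 6 in SVX (median logFC -5.11), 2 in VAS (-3.50), 1 in SVX_VAS (-2.23) and 1 in INT (-1.91). Set against INT, 0 of the 7 tested genes were called in SVX (median logFC -3.10), SVX_VAS (-0.18) or VAS (-1.35). The unequal counts against estrus were thus not matched by a called difference from INT. The progesterone-response genes called higher numbered 5 in SVX_VAS and 6 in each of the other groups. In the mean of the mated groups, Gata2 (0.18) and Clca3a2 (-1.15) were not called.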
